A study of Mus musculus with 10 samples.

Results

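The genes described here are 10 transcripts of one extracellular proteolysis system: the membrane-type matrix metalloproteases Mmp14, Mmp15, Mmp16, Mmp17 and Mmp24, the secreted gelatinase Mmp2, and the tissue inhibitors of metalloproteases Timp1, Timp2, Timp3 and Timp4. They were found by symbol among the 56691 Ensembl genes of the deposited table, and all 10 were present, with 1 row each. The set was chosen by function with the measured control and withdrawal counts of the same libraries known, in which Mmp14 had passed the threshold. Their differences between the groups are therefore given as a description, without p-values, and support nothing by themselves.

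RNA was sequenced from the medial habenula of 10 wild-type mice, 1 library per mouse. The control group (n = 4) received saline intraperitoneally for 17 days. The withdrawal group (n = 6) received nicotine ditartrate at 4 mg/kg intraperitoneally, 2 times a day for 14 days, then saline from day 15, and tissue from both groups was taken on day 17. The labels give no strain, age, sex, litter or batch. One label describes FACS-sorted cholinergic neurons, whereas the design text names habenula tissue with no sort.

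Matrix metalloproteases are zinc-dependent endopeptidases made as inactive proenzymes, which cleave collagens, laminins, fibronectin and many cell-surface proteins. The membrane-type enzymes stay on the cell surface: Mmp14, Mmp15, Mmp16 and Mmp24 span the membrane, and Mmp17 is held by a glycolipid anchor. TIMPs block the active site of these enzymes, and Timp2 has a second role, since a complex of Timp2 with Mmp14 binds pro-Mmp2 at the cell surface, where a free Mmp14 molecule activates it. In the brain the system is known from vascular remodelling, myelination, microglial migration and synaptic plasticity.

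Upstream sequence is shown for the protease whose transcript passed the threshold, for Mmp15, a membrane-spanning relative of similar level, and for Timp3, the inhibitor second in level, so that their promoters stand side by side. The RefSeq promoter table (build GRCm38.p6, another build than the mm39 of the counts) held 7 of the 10 genes. Mmp2, Mmp16 and Mmp17 were not among them. Each run goes 5′ to 3′ on the strand of the gene and stops at the annotated start or at the first base that a GENCODE M21 transcript of the gene covers. The window of Timp2 is not printed because such a transcript covers it. The runs are Mmp14 at chr14:54431348-54431597 (plus strand), Mmp15 at chr8:95352046-95352267 (plus strand) and Timp3 at chr10:86300162-86300371 (plus strand). Capitals mark the GC box, GGGCGG or its reverse complement CCGCCC.
Mmp14: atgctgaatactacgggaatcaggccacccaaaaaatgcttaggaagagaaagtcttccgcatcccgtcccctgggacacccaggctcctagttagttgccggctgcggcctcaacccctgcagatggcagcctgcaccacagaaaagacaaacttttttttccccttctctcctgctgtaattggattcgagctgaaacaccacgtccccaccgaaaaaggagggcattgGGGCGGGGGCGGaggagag
Mmp15: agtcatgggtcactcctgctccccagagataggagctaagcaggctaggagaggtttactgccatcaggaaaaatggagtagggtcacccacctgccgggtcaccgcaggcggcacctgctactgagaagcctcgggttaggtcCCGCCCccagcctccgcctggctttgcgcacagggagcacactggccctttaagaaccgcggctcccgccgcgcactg
Timp3: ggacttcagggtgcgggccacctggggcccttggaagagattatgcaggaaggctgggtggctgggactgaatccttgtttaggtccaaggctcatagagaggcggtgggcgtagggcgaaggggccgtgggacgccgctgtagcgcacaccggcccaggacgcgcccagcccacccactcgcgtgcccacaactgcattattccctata
The Mmp14 run held 2 GC boxes set end to end near the start, at bases -19 to -14 and -13 to -8 before the start, and a match to the Egr1 motif GCGNGGGCG at -17 to -9 overlapped both. A GC box lay in 32.7% of the 32851 windows of 250 bases before a start, and an Egr1 match in 4.70%. Mmp15 had 1 GC box, on the opposite strand, and no Egr1 match. The single GC box of Timp3 lay at -15 to -10, beyond its printed run. Of the windows not printed, that of Mmp24 held 3 GC boxes and 1 Egr1 match, those of Timp1 and Timp2 each held 1 GC box, and that of Timp4 held none. None of the 7 windows held a TATA box (TATAAA, in 12.4% of all windows), an AP-1 motif (TGANTCA, in 6.75%) or the glucocorticoid receptor motif AGAACA (in 16.1%). Both strands were searched, and a match or its absence describes these letters only.

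Library totals ran from 15023448 to 22026333 counts. Control 2 and withdrawal 2 stood apart: the summed level of 8 ventral medial habenula markers was 26.5 and 29.8 CPM (read counts expressed at equal library size after TMM normalisation) there, against 1047 to 1608 CPM in the other 8 libraries. Markers of hippocampal and cortical excitatory neurons summed to 2599 CPM in control 2, and GABAergic markers to 751 CPM in control 2 and 1116 CPM in withdrawal 2. Oligodendrocyte markers summed to between 5863 and 14569 CPM in every library, so the libraries held more than the neurons that label describes. Astrocyte and oligodendrocyte markers were lower in withdrawal in 6 of 6 members each, and the 1 called marker of all lists was Gpr17 of oligodendrocyte precursors, which fell. Without control 2 and withdrawal 2, astrocyte markers summed to between 1811 and 1870 CPM in controls and 1458 and 1661 CPM in withdrawal. Oligodendrocyte markers had 11071 to 12292 and 5863 to 10008 CPM there. Values below are given for all 10 libraries and, where they move, for the 8 without control 2 and withdrawal 2. In bulk RNA, fewer cells of a type and less RNA per cell cannot be told apart.

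Timp2 was the most abundant of the 10 transcripts per length, and the inhibitors together exceeded the membrane enzymes in 9 of 10 libraries. Levels between genes are compared as FPKM, which divides by gene length. Over the 10 libraries Timp2 had 107 ± 37.8 FPKM (SD, n = 10), followed by Timp3 with 21.5 ± 6.22 FPKM. Mmp17 (10.6 ± 9.58 FPKM), Mmp15 (7.04 ± 2.07 FPKM), Mmp24 (6.73 ± 0.989 FPKM) and Mmp14 (5.098 ± 1.43 FPKM) came next. Timp4 had 3.81 ± 0.598 FPKM, Mmp2 1.58 ± 0.925 FPKM, Mmp16 1.19 ± 0.386 FPKM and Timp1 0.614 ± 0.304 FPKM. The ranges of every pair of neighbours in this order overlapped. Timp2 was above Timp3, and Mmp16 above Timp1, in all 10 libraries, while Mmp17 was above Mmp15 in 4 of 10.

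**Figure D1:**
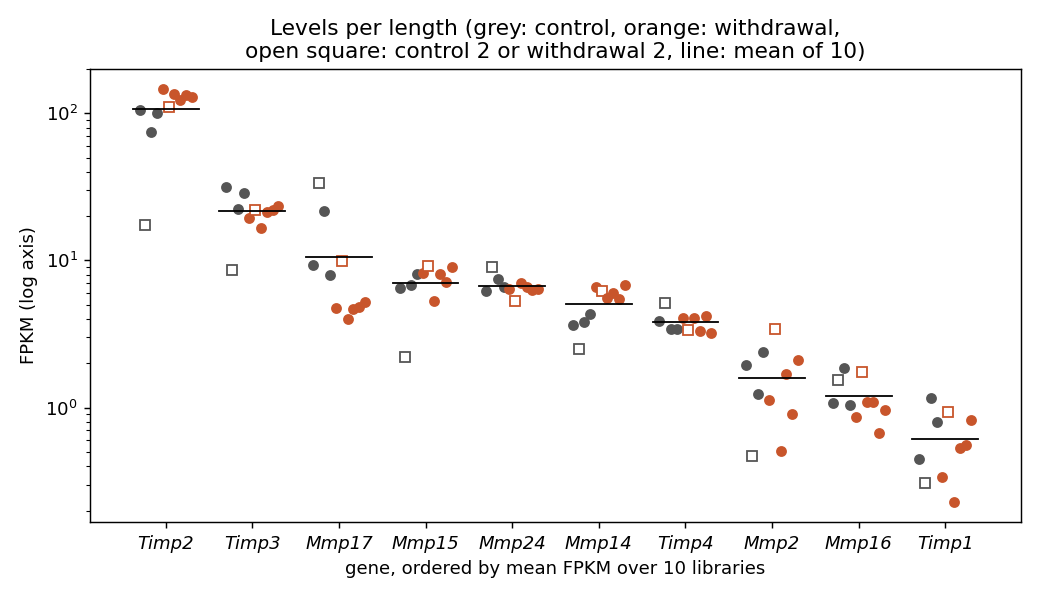
FPKM of the 10 genes on a log axis, 1 point per library (grey, control; orange, withdrawal; open squares, control 2 and withdrawal 2), with the mean of 10 libraries as a line. Timp2 led in 9 of 10 libraries; the exception was control 2, where Mmp17 (33.5 FPKM) was above it (17.4 FPKM), and the ranges of Mmp15, Mmp24 and Mmp14 overlapped.

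Mmp14, the widely expressed membrane-type collagenase that activates pro-Mmp2, was higher in every withdrawal library than in any control. It (ENSMUSG00000000957) had 21.6, 18.03, 22.97 and 25.4 CPM in controls 1 to 4. The 6 withdrawal libraries ran from 32.2 to 38.9 CPM with a median of 36.6 CPM. The gap lay between control 4, the highest control, and withdrawal 5, and the libraries that lacked habenula transcripts sat on the side of their own group, control 2 at 18.03 CPM and withdrawal 2 at 37.7 CPM. The group means were 21.99 ± 3.06 CPM (SD, n = 4) and 35.9 ± 3.03 CPM (SD, n = 6), a log2 change of 0.71 (SE 0.106), or 1.63-fold. Between 328 and 753 counts per library stood behind these values. Mmp14 was the 1 called gene of the 9 measured well enough to be tested. Over all 14928 tested genes 0.208% were called by edgeR's quasi-likelihood test, with 0.0335% called higher and 0.174% called lower. The call was kept without control 2 and without withdrawal 2, and was lost without any 1 of the other 8 libraries, with log2 changes between 0.62 and 0.78. It was also lost without a filter on low counts and in both limma fits. Without both libraries the log2 change was 0.60 (SE 0.0938). Blood cell markers, which were higher in withdrawal in 5 of 5 members with no member called, summed to between 30.7 and 76.6 CPM in controls and 50.0 and 642 CPM in withdrawal. Withdrawal 1, with 38.9 CPM of Mmp14, had 60.5 CPM of blood markers, below control 4, and the part of blood cells in the difference was not tested. Ependymal cell markers, higher in 5 of 5 members with none called, summed to between 7.97 and 201 CPM in controls and 139 and 249 CPM in withdrawal. Over the 8 libraries these sums were 149 to 201 CPM and 167 to 249 CPM, and their part in the difference was not tested. Microglial markers, lower in 6 of 6 members with no member called, summed to between 217 and 366 CPM in controls and 182 and 316 CPM in withdrawal.

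**Figure D2:**
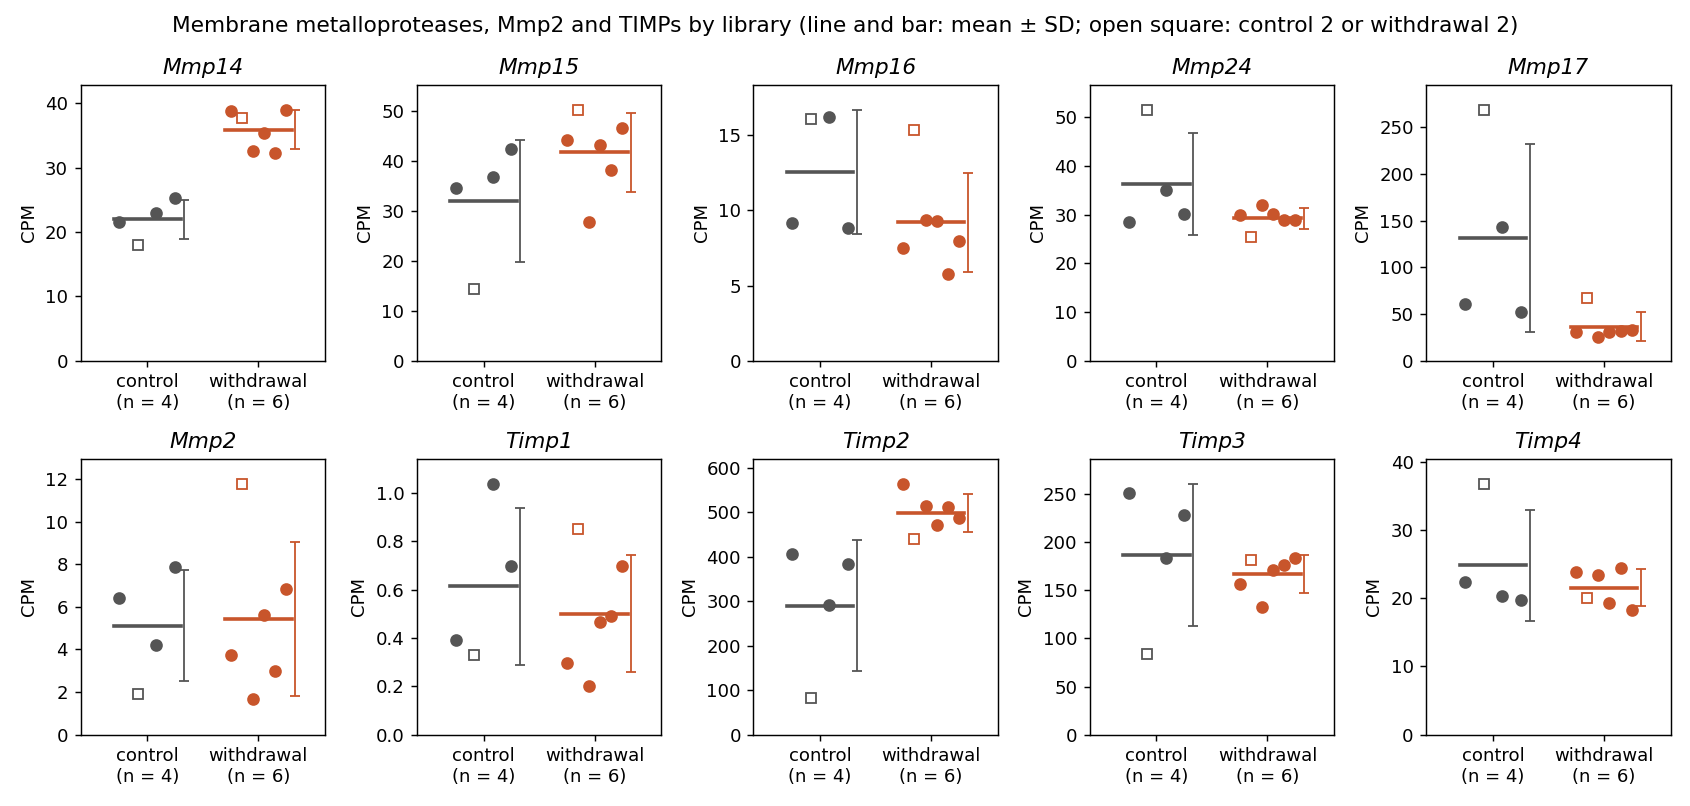
CPM of each of the 10 genes in the 4 control (grey) and 6 withdrawal (orange) libraries, on linear axes from 0; the line is the group mean, the bar the SD, and open squares are control 2 and withdrawal 2. The groups of Mmp14 and Timp2 did not overlap, while control 2 was the highest library for Mmp17, Mmp24 and Timp4 and the lowest for Mmp14, Mmp15, Timp2 and Timp3.

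Mmp15, a membrane-spanning relative that shares many Mmp14 substrates, overlapped between the groups. It (ENSMUSG00000031790) had 34.5, 14.3, 36.8 and 42.5 CPM in controls 1 to 4, and from 27.8 to 50.2 CPM with a median of 43.6 CPM in withdrawal. Control 2 was the lowest library and withdrawal 2 the highest. The log2 change was 0.38 (SE 0.272) over 10 libraries and 0.07 (SE 0.155) over the 8, where controls had 37.9 ± 4.09 CPM (SD, n = 3) and withdrawal 39.99 ± 7.45 CPM (SD, n = 5). Choroid plexus markers, lower in 4 of 5 members with no member called, summed to between 82.8 and 10225 CPM in controls and 62.5 and 13238 CPM in withdrawal. They were lowest in withdrawal 3 and control 2, the libraries with the least Mmp15, and highest in withdrawal 2, the library with the most. Their part in the Mmp15 levels was not tested.

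Mmp17, the glycolipid-anchored enzyme, varied most among the 10 genes, with 10.3 times more CPM in its highest than in its lowest library. It (ENSMUSG00000029436) had 60.6, 268, 143 and 51.9 CPM in controls 1 to 4. Withdrawal 2 had 67.1 CPM, and the other 5 withdrawal libraries had 25.96 to 33.3 CPM. Apart from withdrawal 2, every withdrawal library was below every control. The log2 change was -1.84 (SE 0.456) over 10 libraries and -1.49 (SE 0.283) over the 8, and between 513 and 4880 counts per library stood behind it. It was not called by edgeR over 10 libraries, was called lower by DESeq2 (2.55% of all tested genes called), and was called lower by edgeR without withdrawal 2 and without both libraries.

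The libraries with the most Mmp17 were also those with the most transcripts of hippocampal and cortical excitatory neurons. Summed over 7 markers, these were 2599 CPM in control 2, 904 CPM in control 3 and 568 CPM in withdrawal 2, the 3 libraries highest in Mmp17. Controls 4 and 1 followed with 521 and 462 CPM, and the other 5 withdrawal libraries had 348 to 420 CPM. Of the 6 tested markers 5 had lower means in withdrawal, and none was called. Neurod6, a transcription factor of these neurons, had 15.9, 345, 56.7 and 3.22 CPM in controls 1 to 4, 35.8 CPM in withdrawal 2 and 1.07 to 1.97 CPM in the other 5. Cux2 went the other way, with 25.8 to 44.9 CPM in controls, lowest in control 2, and 43.0 to 65.8 CPM in withdrawal. Wfs1 had 646 CPM in control 2, 89.4 CPM in withdrawal 2 and 34.3 to 45.1 CPM in the other 8 libraries. Control 4 had 51.9 CPM of Mmp17 with 3.22 CPM of Neurod6, and withdrawal 2 had 67.1 CPM with 35.8 CPM. The part of these neurons in the Mmp17 difference was not tested.

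**Figure D3:**
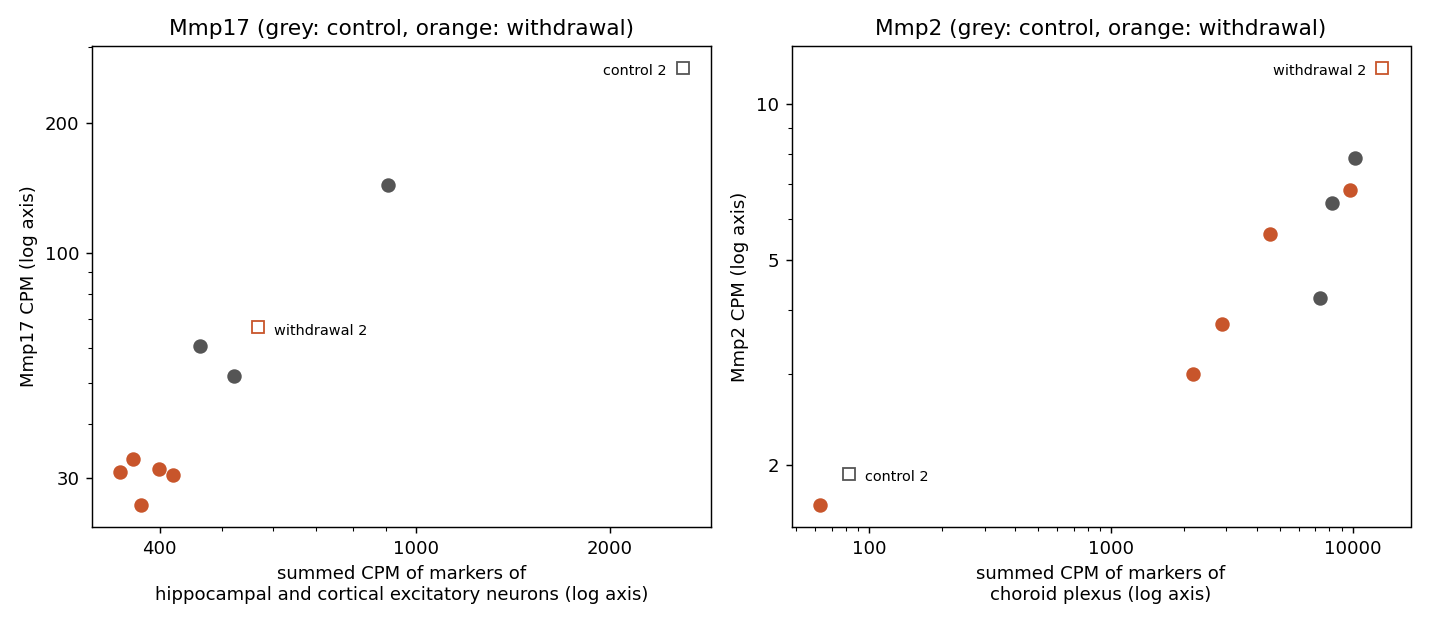
Left, Mmp17 CPM against the summed CPM of 7 hippocampal and cortical neuron markers; right, Mmp2 CPM against the summed CPM of 5 choroid plexus markers, 1 point per library, both axes logarithmic (grey, control; orange, withdrawal). Control 2 was highest on both left axes (2599 and 268 CPM) and withdrawal 2 on both right axes (13238 and 11.8 CPM).

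Mmp16 and Mmp24, membrane-spanning enzymes known for expression in neural cells, overlapped between the groups. Mmp16 (ENSMUSG00000028226) had 9.19, 16.05, 16.2 and 8.81 CPM in controls 1 to 4, and from 5.76 to 15.4 CPM with a median of 8.63 CPM in withdrawal. Controls 2 and 3 and withdrawal 2 were the 3 highest libraries, as for Mmp17. The log2 change was -0.45 (SE 0.285), and -0.52 (SE 0.231) over the 8. Mmp24 (ENSMUSG00000027612) was the most even of the membrane enzymes outside control 2, with 28.5, 51.5, 35.1 and 30.2 CPM in controls 1 to 4 and 25.4 to 32.1 CPM in withdrawal. Over the 8 libraries it lay between 28.5 and 35.1 CPM, with a log2 change of -0.07 (SE 0.0790), against -0.31 (SE 0.155) over all 10. In GENCODE M21, 637 of its 4683 exon bases lie opposite exons of BC029722, which had 473 to 870 counts, and the strand setting of the counting is not given, so its level is uncertain to that extent.

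Mmp2, the gelatinase that the Mmp14 and Timp2 complex activates, had few counts and no direction that held. It (ENSMUSG00000031740) had 6.43, 1.92, 4.22 and 7.88 CPM in controls 1 to 4, and from 1.67 to 11.8 CPM with a median of 4.68 CPM in withdrawal, from 33 to 235 counts. The log2 change was 0.09 (SE 0.534) over 10 libraries and -0.58 (SE 0.392) over the 8. Its 4 highest libraries (withdrawal 2, control 4, withdrawal 6 and control 1) and its 2 lowest (withdrawal 3 and control 2) were also the 4 highest and 2 lowest in summed choroid plexus markers. Meningeal and perivascular fibroblast markers, lower in 5 of 5 tested members with none called, summed to between 25.7 and 243 CPM in controls and 42.4 and 204 CPM in withdrawal. They were also lowest in control 2 and withdrawal 3. The part of these tissues in the Mmp2 levels was not tested.

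Timp2, the inhibitor that can also bridge Mmp14 and pro-Mmp2, was the other gene whose groups did not overlap. It (ENSMUSG00000017466) had 406, 82.1, 290.4 and 382 CPM in controls 1 to 4. The 6 withdrawal libraries ran from 439 to 564 CPM with a median of 499 CPM. Control 2 stood far below the other controls, and the lowest withdrawal library was withdrawal 2. The means were 290.1 ± 147 CPM (SD, n = 4) and 498 ± 42.7 CPM (SD, n = 6), a log2 change of 0.78 (SE 0.351). Without control 2 and withdrawal 2 they were 359 ± 60.9 CPM (SD, n = 3) and 509 ± 35.1 CPM (SD, n = 5), a log2 change of 0.50 (SE 0.105). Groups without overlap were found for 2 of the 9 tested genes (Mmp14 and Timp2, both higher), against 3.31% of all tested genes (1.62% higher, 1.69% lower). Over the 8 libraries this held for 3 of the 9, Mmp17 (lower) being the third, against 23.3% of all (11.9% higher, 11.5% lower). Ventral medial habenula markers, higher in 8 of 8 members with none called, summed to between 26.5 and 1565 CPM in controls and 29.8 and 1608 CPM in withdrawal. Over the 8 libraries these sums were 1130 to 1565 CPM in controls and 1047 to 1608 CPM in withdrawal. Control 2 and withdrawal 2, the lowest libraries of these markers, were also the lowest of their groups in Timp2. Withdrawal 2 was still above every control in Timp2. Withdrawal 1, lowest of the 8 in these markers (1047 CPM), had the most Timp2 (564 CPM). The part of habenula cells in the difference was not tested. Thalamic neuron markers, higher in 6 of 6 members with none called, summed to between 68.3 and 302 CPM in controls and 174 and 517 CPM in withdrawal, and their part in the Timp2 difference was not tested.

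Timp3, the inhibitor that binds to the extracellular matrix, was lower in most withdrawal libraries once control 2 was set aside. It (ENSMUSG00000020044) had 251, 84.3, 184 and 228 CPM in controls 1 to 4, and from 132 to 184 CPM with a median of 174 CPM in withdrawal. The log2 change was -0.16 (SE 0.251) over 10 libraries and -0.44 (SE 0.122) over the 8, where the highest withdrawal library reached the lowest control. In GENCODE M21 the gene lies inside Syn3 on the opposite strand, and 1733 of its 8144 exon bases overlap exons of Syn3, which had 182 to 401 counts against 1534 to 4895 for Timp3. Pericyte and smooth muscle markers, lower in 6 of 6 members with none called, summed to between 199 and 262 CPM in controls and 147 and 209 CPM in withdrawal. Over the 8 libraries these sums were 199 to 262 CPM in controls and 147 to 193 CPM in withdrawal. Their part in the Timp3 difference was not tested.

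Timp4 and Timp1 showed no separation. Timp4 (ENSMUSG00000030317), an inhibitor with restricted expression that includes brain, had 22.4, 36.8, 20.3 and 19.8 CPM in controls 1 to 4 and 18.2 to 24.5 CPM in withdrawal. Without control 2 and withdrawal 2 its log2 change was 0.065 (SE 0.113), against -0.20 (SE 0.182) over all 10. The gene lies inside Syn2 on the opposite strand, with 90 of its 5894 exon bases opposite exons of Syn2, which had 3383 to 8515 counts against 331 to 670 for Timp4, so its level is uncertain to the extent of that overlap. Timp1 (ENSMUSG00000001131), the inhibitor best known for induction by injury and inflammation, had 4 to 17 counts per library, or 0.202 to 1.04 CPM. Its mean FPKM was under the minimum of 1 for testing, and edgeR did not call it with filterByExpr or without a filter, the settings that tested it. Timp1 lies inside Syn1 on the opposite strand, with 0 of its 888 exon bases opposite exons of Syn1, which had 3647 to 9299 counts. The strand setting of the counting is not given, so whether reads of Syn1 add to the few Timp1 counts is unknown.

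Of the 9 tested genes, 4 were called without control 2 and withdrawal 2: Mmp14 and Timp2 higher, Mmp17 and Timp3 lower. In that comparison 14.0% of all tested genes were called, 6.36% higher and 7.63% lower. As the contrast is the one known when the genes were chosen, nothing is read from this count.

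**Figure D4:**
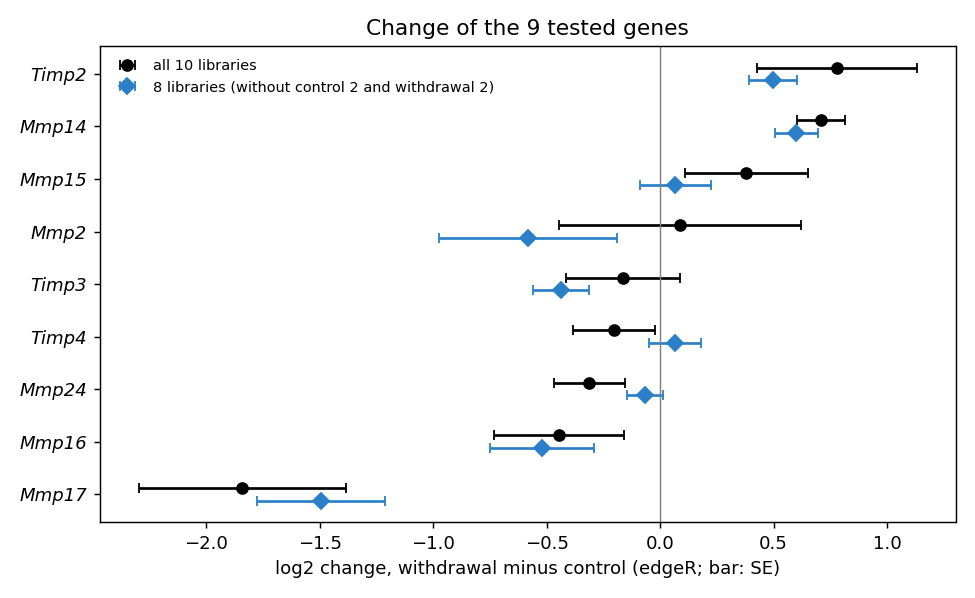
Log2 change (withdrawal minus control, edgeR, bars are the SE) of the 9 tested genes over all 10 libraries (black circles) and over the 8 without control 2 and withdrawal 2 (blue diamonds). Mmp14 had 0.71 and 0.60 and Mmp17 -1.84 and -1.49, while Mmp2 moved from 0.09 to -0.58 and Timp4 from -0.20 to 0.065.

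Ratios within a library do not depend on its total. They were formed after the levels had been seen and are given without a test. Timp2 exceeded Timp3 by 3.37, 2.04, 3.31 and 3.505 times in FPKM in controls 1 to 4, and by 5.06 to 8.11 times in withdrawal. The groups did not overlap, and withdrawal 2 was the lowest of its group. Timp2 made up 55.4% to 75.3% of the summed FPKM of the 4 inhibitors in controls and 80.9% to 86.6% in withdrawal. Mmp14 made up 13.7%, 5.13%, 9.25% and 15.5% of the summed FPKM of the 5 membrane-type enzymes in controls 1 to 4, and 19.2% to 24.5% in withdrawal. Mmp17 made up 28.6% to 68.6% of the same sum in controls and 17.5% to 30.7% in withdrawal, so the share of Mmp14 also depends on Mmp17. The ratio of Timp2 to Mmp14, the partners in pro-Mmp2 activation, overlapped, at 6.96 to 28.8 in controls and 17.8 to 24.3 in withdrawal. Summed inhibitors over summed membrane-type enzymes gave 0.644 in control 2, 2.44 to 5.29 in the other controls and 4.22 to 6.78 in withdrawal.

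**Figure D5:**
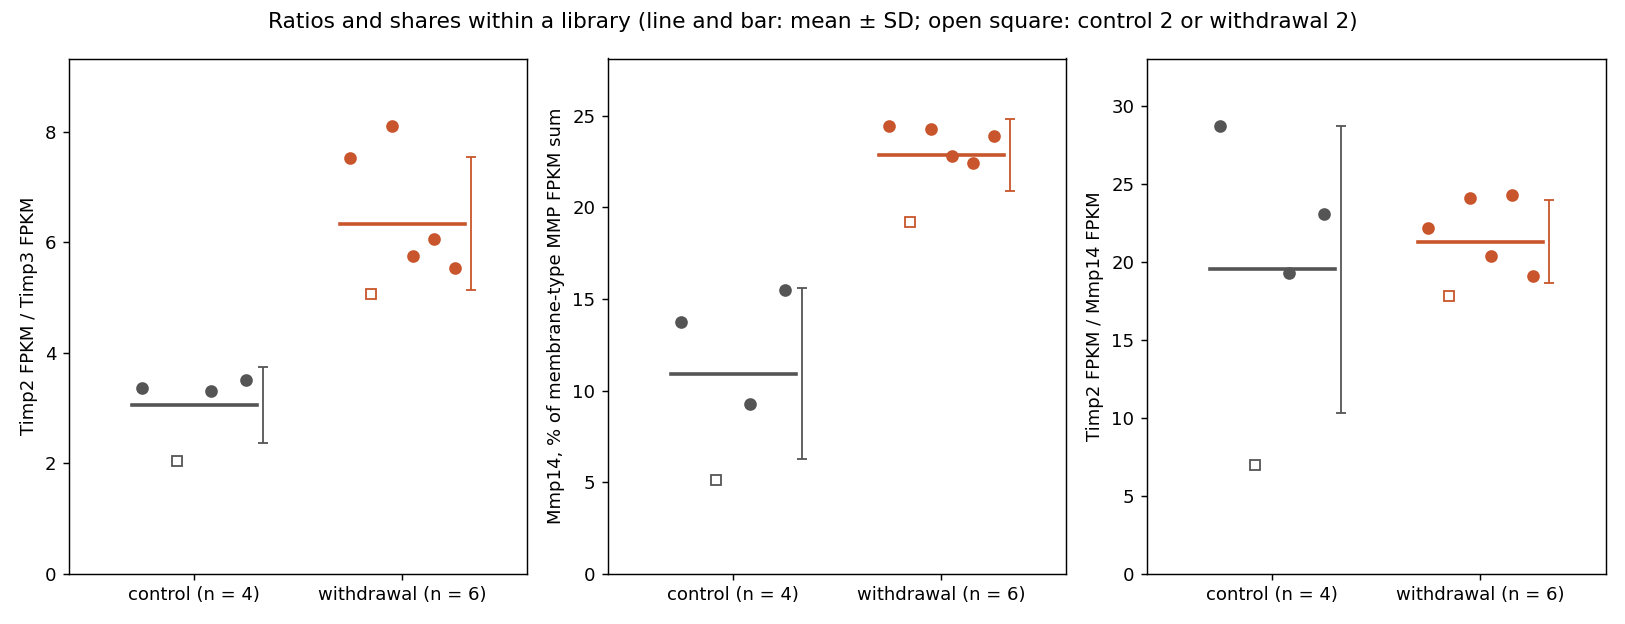
Ratio of Timp2 to Timp3 FPKM, share of Mmp14 in the summed FPKM of the 5 membrane-type enzymes, and ratio of Timp2 to Mmp14 FPKM in each control (grey) and withdrawal (orange) library, with the mean and SD; open squares are control 2 and withdrawal 2. The first 2 panels show groups without overlap, and the share in the second also depends on Mmp17, which is part of the sum. In the third the withdrawal libraries (17.8 to 24.3) lie within the range of the controls (6.96 to 28.8).

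The other genes of the pathway were read from the same fit, from lists chosen with earlier results of these data known. Their lists held 15 further metalloproteases, 11 ADAM genes, 18 ADAMTS proteases, 7 proprotein convertases, 5 further inhibitors, 13 partners and 22 matrix proteins. Of the 61 tested genes in these lists 1 was called, Fn1, and it fell. Over all tested genes 0.208% were called, and 0.174% were called lower. Fibronectin (Fn1), an adhesive matrix protein that Mmp14 cleaves, had 71.5 ± 7.32 CPM in controls (SD, n = 4) and 36.3 ± 6.77 CPM in withdrawal (SD, n = 6). Controls ran from 63.2 to 81.02 CPM and withdrawal from 27.4 to 47.7 CPM, without overlap. Groups did not overlap for 3.31% of all tested genes, with 1.69% lower in withdrawal. The log2 change was -0.98 (SE 0.137, edgeR adjusted p = 0.0315), and -1.13 without control 2 and withdrawal 2. The call was kept without either of those 2 libraries and lost without any 1 of the other 8. It was also lost in both limma fits.

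Matrix proteins were lower in 15 of 19 tested members, with a median log2 change of -0.28, against a median of 0.0034 over all tested genes. Only Fn1 among them was called, and 5 of the 19 had an unadjusted p under 0.05 in edgeR, against 15.4% of all tested genes. The basement membrane collagen gene Col4a1 had 72.4 ± 15.6 and 54.8 ± 3.78 CPM, and the proteoglycan gene Vcan 35.9 ± 6.03 and 27.2 ± 3.13 CPM, each with a log2 change of -0.40. Control 2, lowest in summed fibroblast markers (25.7 CPM), was the highest library for Col4a1 (95.8 CPM) and Vcan (44.8 CPM). Over the 8 libraries fibroblast markers summed to between 185 and 243 CPM in controls and 42.4 and 143 CPM in withdrawal. Col4a1 there had 63.0 to 66.0 CPM in controls and 49.2 to 57.7 CPM in withdrawal, and Vcan 31.7 to 34.5 and 24.5 to 28.3 CPM. The part of fibroblasts in these 2 genes was not tested. Col1a1, Col1a2 and Col3a1 stand in both the fibroblast and the matrix list, and Vtn in both the pericyte and the matrix list.

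Of the 6 tested proprotein convertases, 4 had higher means (Pcsk1, Pcsk2, Pcsk4 and Pcsk6) and 2 lower means (Furin and Pcsk7). The median log2 change was 0.23 (0.12 over the 8 libraries). In edgeR none was called and 1 had an unadjusted p under 0.05, and DESeq2 called none. That one was Pcsk4, with 5.35 ± 2.499 and 10.1 ± 2.898 CPM and a log2 change of 0.92 (SE 0.363). Pcsk6, a convertase bound to the cell surface and matrix, had a log2 change of 0.30 (0.097 over the 8 libraries) and Pcsk7 one of -0.19. Furin had a log2 change of -0.17 (-0.33 over the 8 libraries). Of the 5 genes listed as further inhibitors 4 had higher means, with a median of 0.30 (0.32 over the 8 libraries). None was called by edgeR or DESeq2, and 1 had an unadjusted p under 0.05 in edgeR. A2m, among those with higher means, changed sign, from 0.30 to -0.14 over the 8 libraries. The testicans Spock3 and Spock2, matrix proteoglycans, had log2 changes of 0.36 and 0.31, and Reck, a membrane-anchored inhibitor of Mmp14 and Mmp2, one of -0.17.

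Among the partners of Mmp14 at the membrane, 5 of 12 tested genes had higher and 7 lower means (median -0.037), with 0 called by edgeR or DESeq2 and 2 with an unadjusted p under 0.05. Sh3pxd2a, the scaffold that gathers Mmp14 at invasive membrane protrusions, had 68.1 ± 12.2 and 44.5 ± 12.4 CPM, a log2 change of -0.61 (SE 0.192). Lrp1, an endocytic receptor and Mmp14 substrate, had a log2 change of -0.21, and Cttn, an actin-binding protein of the same protrusions, one of -0.38. Without control 2 and withdrawal 2 these were -0.13 and -0.14, and the median of the partners was -0.19. Of 9 tested ADAM genes 7 had lower means (median -0.075), and of 8 tested ADAMTS genes 5 had higher means (median 0.091). Over the 8 libraries the ADAM median changed sign, to 0.056, and the ADAMTS median was 0.065. Adam11, Adam15, Adam19, Adam22 and Adam23 were then above 0 (0.070, 0.056, 0.26, 0.15 and 0.23), and the other tested ADAM genes below 0. Over all 10 libraries neither edgeR nor DESeq2 called any of these ADAM and ADAMTS genes, and 1 and 2 had an unadjusted p under 0.05. Adam8, a protease of activated myeloid cells, had a log2 change of -0.84, Adam9 one of -0.20 and Adam19 one of 0.20. Adamts6, Adamts2 and Adamts3 had 0.75, 0.35 and -0.82, the last 2 moving to 0.20 and -0.51 over the 8 libraries. Of the 15 further matrix metalloproteases, 2 reached a mean FPKM of 1, Mmp11 (log2 change 0.29, and 0.031 over the 8 libraries) and Mmp23 (-0.37). Neither tool called them, and neither had an unadjusted p under 0.05.

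The genes whose library-to-library pattern was most like each member were ranked by the Pearson correlation of log2 CPM after subtracting the group means. This was done over all 10 libraries and 14928 tested genes, so high values are a product of the ranking and of the libraries that stand apart. For Mmp14 they were Tmem9 (r = 0.918), Gkap1 (r = 0.913) and Smim11 (r = 0.910), with r of 0.883, 0.909 and 0.967 over the 8 libraries. For Mmp15 they were Ccdc102a (r = 0.985), the choroid plexus marker Clic6 (r = 0.984) and Mfrp (r = 0.982), with r of 0.929, 0.931 and 0.930 over the 8. Mmp2 was most like Gstm2, Aass and Pomgnt1 (r = 0.987, 0.987 and 0.986). Mmp17 was most like Uvrag, Itga7 and Sec14l2 (r = 0.984, 0.984 and 0.980). Mmp16 was most like Ercc6, Nrde2 and Cdh9 (r = 0.971, 0.957 and 0.947), and Mmp24 most like Ptcd1, Khdrbs3 and Suds3 (r = 0.983, 0.978 and 0.977). Timp2 was most like Tmem91, Plch1 and Zfhx3 (r = 0.990, 0.989 and 0.989) and Timp3 most like Rnh1, Mamdc2 and Tor1aip1 (r = 0.986, 0.981 and 0.979). Timp4 was most like Smim13, Ttpal and Frmd4a (r = 0.988, 0.979 and 0.976). In the same order, r over the 8 libraries was 0.984, 0.969 and 0.972 for Mmp2, and 0.955, 0.957 and 0.927 for Mmp17. It was 0.939, 0.899 and 0.907 for Mmp16, and 0.852, 0.927 and 0.855 for Mmp24. For Timp2 it was 0.948, 0.814 and 0.920, for Timp3 0.940, 0.886 and 0.959, and for Timp4 0.964, 0.946 and 0.929. Ranked over the 8 libraries instead, the first 3 genes of each member differed from those named, except Smim11 for Mmp14.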

How the data were processed

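Per the file headers, the deposited table gives a raw count and an FPKM value for each gene and library. The authors' FPKM followed the deposited counts with a largest relative gap of 0.00119, checked on the 1406 genes that had 2000 or more counts throughout. The submitters' processing notes list cutadapt (1.9.1), HISAT2 (2.2.1), HTSeq (0.6.1) and build mm39. The annotation, strand setting and gene lengths are not given in the sources used here. Symbols came from GENCODE M21 identifiers, which named 52073 of the 56691 genes, and no gene coordinates are given because its build differs.

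Testing took the 14928 genes whose FPKM averaged 1 or more, which kept 99.0% or more of every library, and used edgeR 4.0.16 (R 4.3.3; TMM, quasi-likelihood F-test), withdrawal (n = 6) against control (n = 4), 2-sided, with Benjamini-Hochberg adjustment over all tested genes and a threshold of 0.05. CPM used the same factors. SD are over libraries and SE are from the fit. Each mouse gave 1 library, so the spread includes animal and technical variation, and counts without molecular identifiers make counting precision a lower bound on the error. The members, lists, markers and alternatives were chosen with earlier results of these data known. Named genes were the members, from each pathway list every called gene and the 3 smallest unadjusted p, and the 3 genes most like each tested member. Some further ADAM genes and convertases were named after their values were seen. DESeq2 1.42.0, limma 3.58.1, other filters and scalings, left-out libraries and a replicate block were alternatives. The fit was tested on simulated counts whose spread was that of the libraries without control 2 and withdrawal 2. That test therefore does not show how the fit behaves with these 2 libraries included. Log2 CPM for correlations used a prior count of 2; the correlation over 8 libraries was added after the data were seen.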

Additional observations from a re-analysis of the deposited data

Results flagged for a closer look

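Of 20 groups of libraries (10 genes in 2 groups), 3 had 1 library whose gap to the nearest other exceeded Dixon's 95% limit, where chance flags about 1 group in 20. All 3 are control 2 or withdrawal 2. Withdrawal 2 reached 15.4 CPM of Mmp16, and its 5 group mates spanned 5.76 to 9.36 CPM. For Mmp17 it reached 67.1 CPM, and the same 5 spanned 25.96 to 33.3 CPM. Control 2 reached 36.8 CPM of Timp4, and the other 3 controls spanned 19.8 to 22.4 CPM.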

How the results depend on the processing

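The count of called genes, 31 in edgeR, was 380 in DESeq2, 12 and 10 in limma on log2(FPKM + 1) and log2(FPKM + 0.1), 0 with a replicate block, 2088 without control 2 and withdrawal 2, and 4 to 893 when 1 library was left out (893 without withdrawal 2). Of the members, 1 (Mmp14) was called, against 2 in DESeq2 (with Mmp17), 0 without a filter, 0 in both limma fits, 0 with the block, 4 without both libraries and 0 to 2 with 1 left out. Of the pathway genes, 1 (Fn1) was called, against 0 in both limma fits, 0 with the block, 21 without both libraries and 0 to 7 with 1 left out. The cause of these shifts was not tested. DESeq2 size factors in edgeR and filterByExpr moved none of the 3 counts by over 1.5 times. Mmp14, Mmp15, Mmp16, Mmp17, Mmp24 and Timp2 kept their direction in all 18 alternatives. The log2 change of Mmp2 (0.09) was -0.10 with the replicate block, -0.58 without both libraries and -0.30 to 0.38 with 1 left out. That of Timp3 (-0.16) was 0.0096 and 0.019 in the limma fits and -0.41 to 0.014 with 1 left out. That of Timp4 (-0.20) was 0.065 without both libraries and -0.30 to 0.042 with 1 left out. Libraries with the same number did not deviate together in every pair (r = 0.029, 0.305, -0.13 and 0.279 for numbers 1 to 4), so the numbers were not taken as pairs.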

Other observations

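Without control 2 and withdrawal 2, 21 of the 61 tested pathway genes were called by edgeR, against 14.0% of all tested genes. This comparison was planned with the state of these libraries known. The lists were chosen with earlier results of these data known, so nothing is read from this count. Matrix genes had 8 lower and 1 higher of 19: Fn1 (log2 change -1.13), Col1a2 (-1.28), the laminin chains Lamb1 (-0.84) and Lamc1 (-0.47), the laminin-binding Nid1 (-0.71), the proteoglycans Ncan (-0.47) and Vcan (-0.35) and Col4a1 (-0.27) fell, and the collagen-binding Sparc (0.66) rose. The sheddases Adam8 (-0.85), Adam9 (-0.22) and Adam17 (-0.27) fell. Among ADAMTS proteases Adamts1 (-0.95) and Adamts4 (-0.44) fell, and Adamts6 (0.64) and Adamts16 (0.64) rose. The testicans Spock1 (0.46) and Spock2 (0.32) and the convertase Pcsk4 (0.80) rose, while the integrin Itgav (-0.33) and Sh3pxd2a (-0.66) fell. In these 8 libraries fibroblast markers summed to between 185 and 243 CPM in controls and 42.4 and 143 CPM in withdrawal, and Col1a2 is one of these markers; their part in the other matrix genes was not tested. The 21 genes are named because they were called, after their values were seen: 20 of the 21 were not called over all 10.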
